A study of Mus musculus with 64 samples.

Results

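Microglia taken from the hippocampus at Night were compared between mice labelled Soci or Cogn and mice labelled Ctr0 or Ctr1. The 16 libraries were chosen by their titles from 64 in the series: 8 on the Soci and Cogn side (4 each) and 8 on the control side (4 Ctr0 and 4 Ctr1). The animals of all groups were male mice aged 9 to 10 weeks. Their strain is C57BL/6 in the labels and C57BL6/N in the study's methods, and the labels name no allele or transgene. The labels do not say what the 4 condition names stand for, nor what set Ctr0 apart from Ctr1, so the names are used as they stand, as are Night and Day. The mice were kept on a reversed light-dark cycle and were perfused. The hippocampus was homogenised in the cold, and cells were separated on Percoll and captured with magnetic beads against CD11b, a surface integrin that microglia share with border macrophages, monocytes and neutrophils. Total RNA depleted of ribosomal RNA was sequenced, and each value below starts from the number of reads per gene. The libraries are bulk samples, so fewer cells of a type and less RNA per cell cannot be told apart.

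The 4 genes that passed the test belong to the circadian clock. In this clock, BMAL1 (encoded by Arntl) pairs with CLOCK or NPAS2 and switches on genes that carry E-boxes, among them the period genes Per1, Per2 and Per3, the cryptochromes Cry1 and Cry2, the nuclear receptors Nr1d1 and Nr1d2 (REV-ERB alpha and beta) and the output gene Dbp. Period and cryptochrome proteins then restrain BMAL1, and REV-ERB proteins repress Arntl, so that Arntl runs out of phase with Dbp and Nr1d1. DBP, TEF and HLF form the PAR bZIP family of transcription factors, which bind D-boxes in further rhythmic genes, and NFIL3 competes with them for the same sites.

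The upstream sequences of the 4 genes that passed the test are shown because these genes moved together and the clock's factors are known by the short DNA words they bind. Each window holds the 250 bases before a start site in RefSeq on GRCm38.p6, read 5′ to 3′ on the gene's strand. Capitals mark a match on either strand to the E-box CACGTG, to a D-box (TTATGTAA or TTACGTAA) or to the REV-ERB and ROR half-site AGGTCA. The windows are chr7:45704997-45705246 (plus strand) for Dbp, chr14:18239107-18239356 (minus strand) for Nr1d2, chr4:151044666-151044915 (minus strand) for Per3, and chr15:81802423-81802672 and chr15:81811164-81811413 (plus strand) for the 2 start sites of Tef.
Dbp: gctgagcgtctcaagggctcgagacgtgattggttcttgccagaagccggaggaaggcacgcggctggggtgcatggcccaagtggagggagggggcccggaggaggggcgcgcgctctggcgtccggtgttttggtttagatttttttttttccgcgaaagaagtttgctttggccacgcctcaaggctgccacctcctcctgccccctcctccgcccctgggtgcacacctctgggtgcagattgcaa
Nr1d2: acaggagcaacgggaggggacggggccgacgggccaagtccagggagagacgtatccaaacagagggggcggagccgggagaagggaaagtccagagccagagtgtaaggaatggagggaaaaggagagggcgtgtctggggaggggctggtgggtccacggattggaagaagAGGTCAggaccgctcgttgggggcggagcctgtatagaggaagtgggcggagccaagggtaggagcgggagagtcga
Per3: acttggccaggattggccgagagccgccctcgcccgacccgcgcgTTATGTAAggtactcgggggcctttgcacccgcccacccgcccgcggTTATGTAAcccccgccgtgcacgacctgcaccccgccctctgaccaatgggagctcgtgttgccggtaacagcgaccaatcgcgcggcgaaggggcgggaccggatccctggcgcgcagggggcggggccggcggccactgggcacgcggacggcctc
Tef, start site 1: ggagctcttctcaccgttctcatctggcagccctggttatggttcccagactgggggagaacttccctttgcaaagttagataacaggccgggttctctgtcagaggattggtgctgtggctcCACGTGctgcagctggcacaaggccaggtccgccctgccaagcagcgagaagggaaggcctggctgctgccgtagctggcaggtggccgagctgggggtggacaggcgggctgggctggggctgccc
Tef, start site 2: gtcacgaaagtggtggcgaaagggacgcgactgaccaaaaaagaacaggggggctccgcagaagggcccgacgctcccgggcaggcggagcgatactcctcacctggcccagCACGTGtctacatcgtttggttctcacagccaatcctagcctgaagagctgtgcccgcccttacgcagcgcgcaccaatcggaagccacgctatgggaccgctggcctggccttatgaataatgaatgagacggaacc
Per3 held 2 D-boxes, which began 205 and 158 bases before the start. Both Tef windows held an E-box, at 127 and 138 bases before their starts, and the Nr1d2 window held a half-site at 77 bases. The Dbp window held none of these words. Among 32851 promoters of the same length, 6.02% held CACGTG, 0.931% held a D-box and 14% held AGGTCA. A match is a description of the letters and not a measured binding site.

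The libraries held between 12.99 and 84.5 M counts, with Soci replicate 4 at 84.5 M, Cogn replicate 4 at 65.7 M and the other 14 between 12.99 and 29.8 M. The markers of the labelled cell type were abundant. The summed level of 22 homeostatic microglial genes was 20527 CPM (counts scaled to a common library total) in Soci and Cogn and 20490 CPM in the controls (exact permutation test over 12870 arrangements, two-sided p = 0.972). A single noncoding gene, Gm26917, took 32.6% of counts in Soci and Cogn and 40.5% in the controls (a difference of -7.90 percentage points, exact permutation p = 0.0199, adjusted over 3 library measures 0.0597). That share averaged 28.9% in Soci, 36.3% in Cogn, 37.8% in Ctr0 and 43.1% in Ctr1. Gm42418, also over 1% of counts, took 4.53% in Soci and Cogn and 6.04% in the controls (exact permutation p = 0.00824, unadjusted). All genes over 1% of counts together took 41.1% and 51.1% (exact permutation p = 0.0107, unadjusted). What RNA the reads counted at these genes came from was not tested. The part of the Gm26917 share in the results below was not tested beyond a fit that held it as a covariate. That of Gm42418 was not tested. CPM values were scaled between libraries by the trimmed mean of M-values (TMM).

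Soci and Cogn microglia expressed less of 4 clock genes than control microglia. Dbp was 50.7% lower, Nr1d2 34.4% lower, Per3 32.7% lower and Tef 26.8% lower, and in each of these the 8 Soci and Cogn libraries lay below all 8 control libraries. These 4 were 0.0241% of the 16568 genes tested, and no gene passed in the other direction (edgeR's quasi-likelihood test, Benjamini-Hochberg adjusted p under 0.05). At an unadjusted p under 0.05, 915 genes were higher (5.52%) and 474 were lower (2.86%). DESeq2 called 9 lower and 2 higher, and limma's voom with quality weights on the libraries called 6 lower and 1 higher.

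Dbp, a strongly rhythmic PAR bZIP gene, lies at chr7:45705088-45710203 on the plus strand (GRCm38). Its level in the 4 Soci libraries was 7.25, 6.99, 6.70 and 6.62 CPM, and in the 4 Cogn libraries 9.14, 6.98, 5.50 and 6.61 CPM. The Ctr0 libraries held 14.5, 13.5, 12.4 and 11.5 CPM, and the Ctr1 libraries 18.2, 13.4, 10.2 and 19.8 CPM. The highest Soci or Cogn library (9.14 CPM) was below the lowest control (10.2 CPM), and the spread was widest in Ctr1. The log2 change was -1.02 ± 0.13 (SE, adjusted p = 0.0140, edgeR). Taken apart, it was -1.04 ± 0.16 in Soci and -1.004 ± 0.17 in Cogn, and the direct difference between Soci and Cogn was -0.03 ± 0.19.

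Nr1d2 (chr14:18204054-18239127, minus strand) encodes REV-ERB beta, a repressor of Arntl. Soci libraries held 28.6, 37.8, 41.7 and 34.5 CPM and Cogn libraries 31.3, 35.8, 31.4 and 32.6 CPM. Ctr0 libraries held 42.6, 49.2, 56.4 and 45.3 CPM and Ctr1 libraries 62.2, 51.6, 49.9 and 60.7 CPM. The gap between the groups was narrow, from 41.7 CPM in a Soci library to 42.6 CPM in a Ctr0 library. The log2 change was -0.61 ± 0.083 (adjusted p = 0.0167, edgeR), with -0.55 ± 0.10 in Soci and -0.67 ± 0.10 in Cogn.

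Per3 (chr4:151003652-151044665, minus strand) encodes a period protein. Soci libraries held 24.7, 22.7, 29.2 and 26.0 CPM and Cogn libraries 32.6, 21.6, 25.0 and 28.8 CPM. Ctr0 libraries held 38.0, 39.8, 37.5 and 32.7 CPM and Ctr1 libraries 36.3, 39.2, 45.3 and 45.1 CPM. The groups all but touched, at 32.6 CPM in a Cogn library and 32.7 CPM in a Ctr0 library. The log2 change was -0.57 ± 0.087 (adjusted p = 0.0278, edgeR), with -0.61 ± 0.11 in Soci and -0.53 ± 0.11 in Cogn.

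Tef (chr15:81802421-81826863, plus strand) encodes a second PAR bZIP factor. Its level was 44.0, 53.6, 55.4 and 50.5 CPM in Soci and 52.0, 41.2, 53.2 and 47.2 CPM in Cogn. In Ctr0 it was 60.0, 60.3, 71.3 and 66.3 CPM, and in Ctr1 75.4, 66.1, 73.9 and 69.7 CPM. No Soci or Cogn library exceeded 55.4 CPM and no control fell under 60.0 CPM. The log2 change was -0.45 ± 0.067 (adjusted p = 0.0278, edgeR), with -0.41 ± 0.084 in Soci and -0.49 ± 0.084 in Cogn. Dbp overlaps Sphk2 and Tef overlaps Gm17597 on the opposite strand, and Per3 overlaps Camta1 on its own strand. Counts followed the strand: genes nested in a highly counted host held a median of 505 counts per kb on the host's strand (727 genes) and 1.38 on the other (444 genes).

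**Figure D1:**
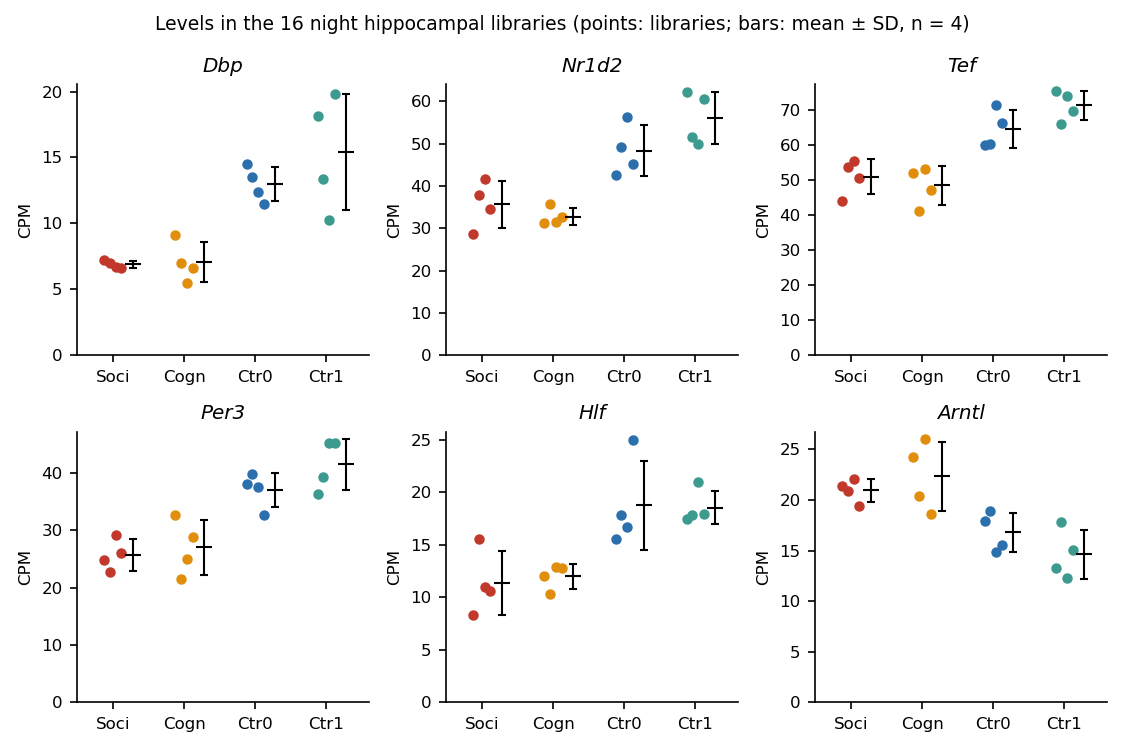
Levels of Dbp, Nr1d2, Tef, Per3, Hlf and Arntl in each of the 16 night hippocampal libraries, in CPM, by condition (points are libraries, bars mean ± SD, n = 4). The 8 Soci and Cogn points lie below all 8 control points for Dbp, Nr1d2, Tef and Per3, while Arntl has the opposite order with overlap between 18.6 and 18.9 CPM.

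Each of the 4 genes was lower under every alternative run, but the calls were not kept in all of them. Dbp lay between -1.14 and -0.90. Scaling by library totals alone moved the median of all genes by 0.29, and Dbp then stood at -0.76 before that shift was subtracted. Leaving out Soci replicate 4 or Cogn replicate 4, the most deeply sequenced libraries, left 0 of the 4 genes past the threshold (Dbp then stood at -1.01, adjusted p = 0.0663 and 0.0510, edgeR). Leaving out replicate 1, 2 or 4 of every condition at once also left 0, and leaving out replicate 3 left Dbp and Nr1d2. Against Ctr0 alone 0 genes passed and Dbp stood at -0.90 (adjusted p = 0.465, edgeR). With the Gm26917 share as a covariate Nr1d2 and Tef passed, with Dbp at -0.94 (adjusted p = 0.0584, edgeR). The main fit held no term for the replicate number. With that number as a block Dbp, Nr1d2 and Tef passed and Per3 did not (adjusted p = 0.0686, edgeR). Across all genes, 6 were lower with no overlap between the groups (0.0362%) and 1 was higher with none (0.00604%). The 6 were the 4 clock genes, Tspan4 and C630043F03Rik, and the 1 was Plpbp, of which C630043F03Rik and Plpbp were named after their values were seen.

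**Figure D2:**
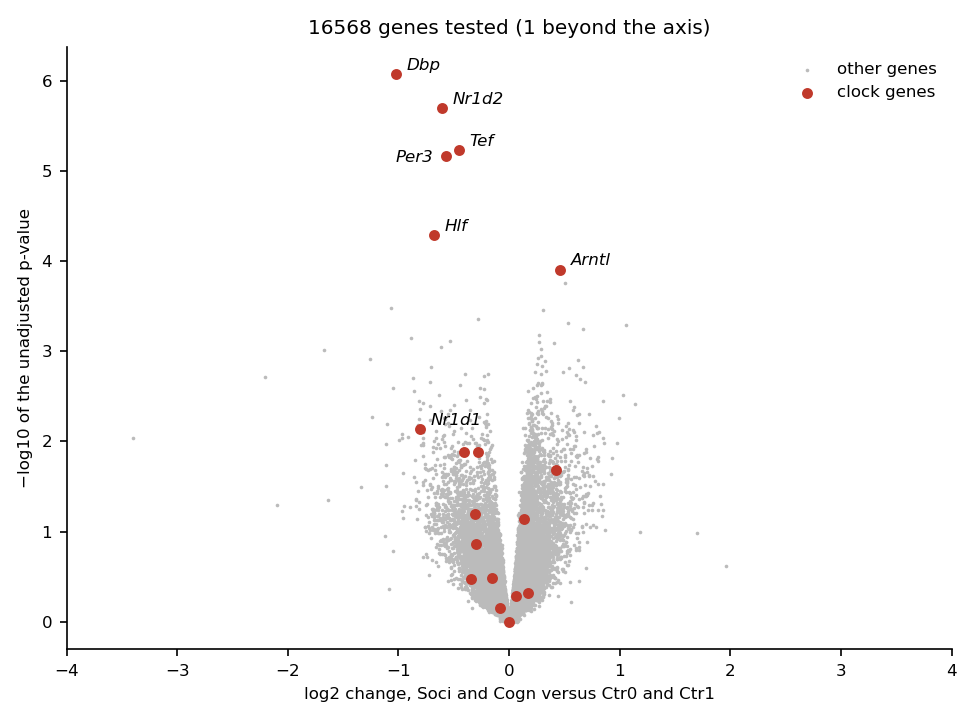
Each of 16568 tested genes by its log2 change in Soci and Cogn against the controls (horizontal axis, drawn from -4 to 4, with 1 gene beyond it) and the unadjusted p on a −log10 scale (vertical axis), clock genes in red. The 4 highest points, all to the left of 0, are Dbp, Nr1d2, Tef and Per3.

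Hlf, the other PAR bZIP member, had a log2 change of -0.68 ± 0.12 that missed the threshold (adjusted p = 0.169, edgeR). Soci libraries held 8.31, 15.5, 10.9 and 10.6 CPM and Cogn libraries 12.04, 10.3, 12.9 and 12.8 CPM, against 15.5, 17.9, 16.7 and 24.9 CPM in Ctr0 and 17.5, 17.8, 20.9 and 17.9 CPM in Ctr1. Only Soci replicate 2 reached the control range. Hlf passed in 4 of 16 other alternatives, DESeq2 and voom among them, and in 1 of 20 leave-outs. That leave-out was the one without Soci replicate 2, the library that overlapped, so it adds no support. Arntl, the activator, had a higher level (0.46 ± 0.092, adjusted p = 0.341). Its Soci libraries held 21.4, 20.9, 22.1 and 19.4 CPM and its Cogn libraries 24.3, 20.4, 26.0 and 18.6 CPM. Ctr0 libraries held 17.9, 18.9, 14.8 and 15.5 CPM and Ctr1 libraries 13.3, 17.8, 12.3 and 15.0 CPM. Cogn replicate 4 alone overlapped the controls. Arntl passed with DESeq2 (adjusted p = 0.0125), the 1 of 16 other alternatives where it did, and in 0 of 20 leave-outs.

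Of the other activators, Clock differed by 0.06 ± 0.099 and Npas2 by -0.08 ± 0.21. Among the nuclear receptors, Nr1d1 had a log2 difference of -0.80 ± 0.26 (unadjusted p = 0.00721) with wide spread: 7.01 to 15.99 CPM in Soci, 5.14 to 20.2 in Cogn, 13.6 to 25.8 in Ctr0 and 11.5 to 30.9 in Ctr1. Rora, an activator of Arntl, differed by -0.28 ± 0.10 (unadjusted p = 0.0131). The other period and cryptochrome genes had unadjusted p-values above 0.05, with Per1 at 0.00 ± 0.20, Per2 at -0.30 ± 0.19, Cry1 at -0.15 ± 0.15 and Cry2 at -0.31 ± 0.15. The repressor Bhlhe40 differed by -0.41 ± 0.15 and Nfil3 by 0.42 ± 0.17 (unadjusted p = 0.0130 and 0.0208). Bhlhe41 (0.13) and Ciart (0.17) had p-values above 0.05.

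Over the 19 clock genes, 13 had a negative difference, and the median log2 change was -0.30, against 0.02 over all genes tested. At an unadjusted p under 0.05, 8 were lower, against 2.86% of all genes, and 2 higher, against 5.52%. With the Gm26917 share as a covariate the median was -0.16 (6 lower, 2 higher). Without the 3 libraries of unusual depth or cell content (Soci, Cogn and Ctr0 replicate 4) it was -0.31 (8 lower, 1 higher). The covariate fit had 3019 genes at an unadjusted p under 0.05, both directions together, against 1389 in the main fit. The counts of these other fits are not set beside a share of all genes lower or higher in the same fit. In the main fit the median was -0.41 in Soci (9 lower, 2 higher) and -0.14 in Cogn (6 lower, 2 higher). The same background over all genes was 9.59% higher and 5.02% lower in Soci, and 1.23% higher and 0.519% lower in Cogn. Between Ctr1 and Ctr0 the median was 0.01 and 0 of the 19 reached an unadjusted p under 0.05, against 1.16% of all genes.

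**Figure D3:**
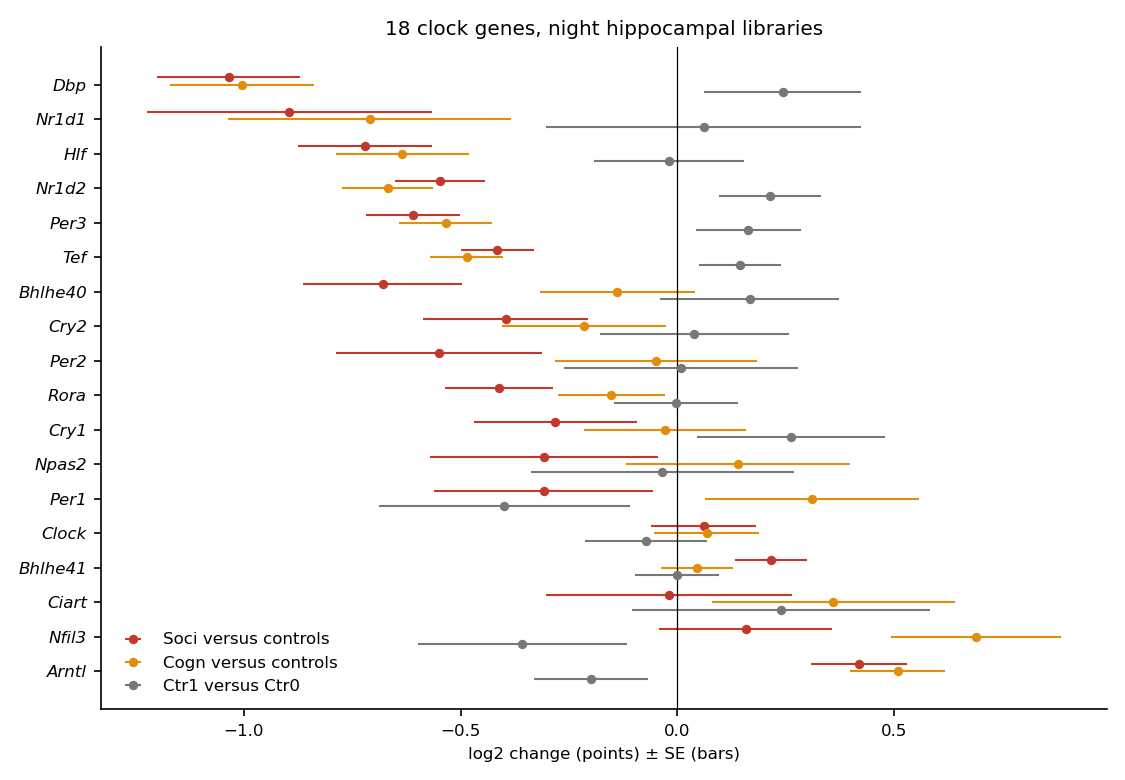
Log2 change ± SE of 18 of the 19 clock genes in Soci and in Cogn against the controls and in Ctr1 against Ctr0. Dbp, Nr1d2, Tef, Per3 and Hlf lie left of 0 in both Soci and Cogn and Arntl lies right of 0 in both, while Per1, Per2 and Bhlhe40 have lower values in Soci than in Cogn.

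Soci and Cogn were then set against the controls one at a time. No gene passed in either with the main edgeR fit (smallest adjusted p 0.192 in Soci and 0.145 in Cogn). At an unadjusted p under 0.05 there were 2421 genes in Soci and 289 in Cogn. Other edgeR fits gave other counts for Soci. With the replicate number as a block 200 genes were called, and with library totals alone 7615. Leaving out single libraries or a replicate number called 0 to 1. DESeq2 called 99 genes in Soci and 4 in Cogn, and voom with quality weights, which changed both the tool and the weight of each library, called 3244 and 3. The genes of lowest p in Soci, beside Dbp, Per3 and Nr1d2, were Lmf1 (0.41), Fgd3 (0.46) and Trp53cor1 (0.54), the last a noncoding RNA near Cdkn1a. In Cogn, beside Nr1d2, Dbp and Tef, they were Arntl (0.51), AI506816 (0.35) and C5ar1 (0.26), the receptor for complement C5a.

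The direct difference between Soci and Cogn was past the threshold for no gene with edgeR (smallest adjusted p 0.504). An unadjusted p under 0.05 was found for 875 genes (5.28%), and DESeq2 called 11 and voom 2889. The largest named differences were in haemoglobin genes. Hbb-bs, a beta globin of red blood cells, held 12.9, 19.97, 14.9 and 15.1 CPM in Soci and 43.9, 70.4, 34.9 and 120 CPM in Cogn (log2 difference -2.10 ± 0.46, adjusted p = 0.556). In Ctr0 it held 26.3, 58.5, 43.1 and 26.0 CPM and in Ctr1 19.4, 60.2, 56.2 and 110 CPM. Only Ctr1 replicate 1 entered the Soci range. Hbb-bt and Hba-a1 differed by -2.27 ± 0.48 and -2.22 ± 0.49, and the 5 haemoglobin genes summed to between 26.9 and 43.3 CPM in Soci and between 72.7 and 246 CPM in Cogn.

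Among genes of other kinds, the sphingolipid transporter family gene Spns3 held 11.4, 10.8, 11.1 and 10.5 CPM in Soci and 6.41, 6.80, 7.07 and 7.47 CPM in Cogn (0.65 ± 0.14), with both controls spread between 6.64 and 10.5 CPM. Trp53cor1 (0.60 ± 0.13) and Arv1 (0.46 ± 0.11) were likewise apart in the 2 conditions, none of them past the threshold. In the clock list, Per1, Bhlhe40 and Nfil3 had an unadjusted p under 0.05 in this comparison (differences of -0.62, -0.54 and -0.53). Nfil3 held 2.51, 2.60, 1.84 and 2.77 CPM in Soci and 3.57, 3.10, 3.77 and 3.71 CPM in Cogn. The difference between the 2 control conditions was smaller: 192 genes at an unadjusted p under 0.05, none past the threshold with edgeR, DESeq2 or voom, and a smallest adjusted p of 1.0.

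The same conditions were sampled by Day in the hippocampus, which allowed the night change to be compared with the day change (32 libraries, 16 of them those above). Dbp alone passed the test of that difference, at -1.04 ± 0.17 (adjusted p = 0.0192, edgeR, 0.00594% of 16826 genes), and 800 genes (4.75%) had a more negative night change at an unadjusted p under 0.05. In the day libraries Dbp averaged 9.60 CPM in Soci, 10.97 in Cogn, 9.13 in Ctr0 and 11.5 in Ctr1, a log2 change of 0.01 ± 0.12. On the same scale the night means were 6.44, 6.66, 12.3 and 14.6 CPM, so the night controls lay above the day means and the night Soci and Cogn groups below them.

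The difference for the other clock genes missed the threshold. It was -0.59 ± 0.12 for Nr1d2 and -0.77 ± 0.15 for Hlf (adjusted p = 0.0811 for both, edgeR), -0.41 ± 0.086 for Tef, -0.47 ± 0.13 for Per3 and 0.36 ± 0.14 for Arntl. Their day changes were all small, from -0.12 ± 0.090 (Per3) to 0.09 ± 0.098 (Arntl). In Hlf the day means were between 22.9 and 24.5 CPM in all 4 conditions, above every night mean (10.6 to 17.8 CPM). The call for Dbp rested on single libraries, since it was lost without Soci replicate 4, Cogn replicate 4 or Ctr0 replicate 1, and 7 genes were called without Ctr1 replicate 1 or Soci replicate 2. With all 32 libraries in 1 fit, the night change passed for Dbp, Nr1d2, Tef, Per3, Hlf and Spp1.

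Night microglia of the frontal cortex gave the second comparison. The study dissected both regions for this isolation, and no source states which libraries share a mouse. The cortical values may therefore not be independent of the hippocampal ones, and the test between regions held no term for the animal. There too Dbp (-1.11), Nr1d2 (-0.63), Per3 (-0.64) and Tef (-0.43) were lower in Soci and Cogn and passed the test (adjusted p = 4.67e-05, 4.67e-05, 0.00220 and 0.000961, edgeR). The hippocampal change minus the cortical change was 0.07 ± 0.19 for Dbp, 0.00 for Nr1d2, 0.05 for Per3 and -0.04 for Tef. For Hlf it was -0.33 ± 0.22 and for Arntl 0.22. No gene passed that test (smallest adjusted p 0.778), 998 of 17015 genes (5.87%) had an unadjusted p under 0.05, and DESeq2 and voom also called 0. Cortical Dbp averaged 7.09 CPM in Soci and 7.43 in Cogn against 13.98 in Ctr0 and 17.6 in Ctr1. The cortical test also called the interferon-inducible genes Iigp1 (-1.17), Ifi47 (-0.90) and Nlrc5 (-0.69) and the immunoglobulin segment Ighj3 (-0.78), none of which passed in the hippocampus, though the difference between regions was past the threshold for none of them.

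Outside the clock no gene passed with edgeR, and the named genes of lowest p are given as values (adjusted p = 0.573 for all, edgeR). DESeq2 called Tspan4 (adjusted p = 0.0125), Spp1, S100a6, Gm42418 and Lsm2 beside clock genes, and voom with quality weights called Alox5 (adjusted p = 0.0386) and Unc13c. On the lower side, the tetraspanin Tspan4 held 20.7, 24.1, 24.1 and 22.9 CPM in Soci, 22.4, 21.8, 22.8 and 23.6 CPM in Cogn, 26.7, 24.3, 25.5 and 28.1 CPM in Ctr0 and 33.5, 30.7, 26.9 and 26.0 CPM in Ctr1 (-0.28 ± 0.063). Its groups did not overlap, by 24.1 against 24.3 CPM. Serpini1, which encodes the protease inhibitor neuroserpin, differed by -0.54 ± 0.13, the ribosomal protein genes Rpl6 and Rps7 by -0.19 ± 0.051 and -0.22 ± 0.060, and the interferon-stimulated gene Rtp4 by -0.40 ± 0.11.

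Among the named genes of the higher side outside the clock, Rbm14, Asap3, Lmf1 and Atat1 had lower p-values than Alox5 and C5ar1. Alox5, which encodes 5-lipoxygenase, the first enzyme of leukotriene synthesis, held 22.1, 22.5, 27.3 and 27.4 CPM in Soci and 20.1, 25.4, 24.9 and 25.2 CPM in Cogn, against 19.5 to 21.1 CPM in Ctr0 and 17.6 to 21.5 CPM in Ctr1 (0.29 ± 0.071). One Cogn library lay inside the control range. C5ar1 differed by 0.26 ± 0.067, the tubulin acetyltransferase gene Atat1 by 0.40 ± 0.098 and the mitochondrial translation factor Gfm2 by 0.33 ± 0.083. Rbm14 (0.31), Taf15 (0.29), Asap3 (0.27), Lmf1 (0.27) and Prdm10 (0.25) completed the named genes.

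No list member outside the clock passed with edgeR. With the Gm26917 share as a covariate the median changed sign in 17 of the 34 lists. Over all genes, that fit had 3019 at an unadjusted p under 0.05, both directions together, against 1389 in the main fit. Ribosomal protein genes had negative differences in 70 of 72 members, with a median of -0.13. At an unadjusted p under 0.05, 30 were lower, against 2.86% of all genes, and 0 higher, against 5.52%. The median was -0.23 in Soci, where 50 were lower, against 5.02% of all genes, and -0.07 in Cogn, where 0 were, against 0.519%. Without the same 3 libraries 17 of the 72 were lower (median -0.13), and with the Gm26917 share as a covariate 12 were (-0.12). Neither count is set beside a share of all genes lower in the same fit. Of 9 tested mitochondrial genome genes all 9 were negative (median -0.31) with none at that p, and 6 of 51 respiratory chain genes were lower (median -0.08). 

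Interferon-stimulated genes were lower in 28 of 30 members by sign, with a median of -0.22. At an unadjusted p under 0.05, 9 were lower, against 2.86% of all genes. Those 9 were Rtp4, Oasl2, Ifit3, Ifit3b, Ifit1, Ifit2, Usp18, Oas1a and Irf7, antiviral effectors and the interferon regulatory factor Irf7. Ifit3 held 2.22 to 4.01 CPM in Soci and 1.99 to 4.11 CPM in Cogn, against 3.52 to 5.43 CPM in Ctr0 and 3.59 to 6.19 CPM in Ctr1. The median was -0.30 in Soci and -0.19 in Cogn, and -0.49 in the night frontal cortex. Without the 3 libraries 9 were lower (median -0.29). In antigen presentation, 21 of 22 genes were negative and 5 had an unadjusted p under 0.05, among them H2-K1, H2-T23 and H2-Q4, with H2-Q7 and H2-Q6 uncertain because near-identical copies can share reads. That count was 10 without the 3 libraries and 1 with the Gm26917 share as a covariate. The counts of these other fits are not set beside a share of all genes lower in the same fit.

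Genes of disease-associated microglia, a state described around plaques and in degeneration, were negative in 19 of 22, with a median of -0.13. At an unadjusted p under 0.05, 7 were lower, against 2.86% of all genes. Spp1, which encodes osteopontin, held 1.06, 1.65, 2.07 and 1.08 CPM in Soci and 2.06, 2.27, 1.57 and 2.35 CPM in Cogn. In Ctr0 it held 1.71, 12.1, 14.6 and 1.68 CPM and in Ctr1 2.59, 3.54, 5.72 and 4.39 CPM (-1.67 ± 0.41). Ctr0 replicates 2 and 3 stood far above the rest, and the same libraries were highest for Gpnmb, at 4.29 and 3.77 CPM. Apoe, the lipid carrier, stood at -0.45 ± 0.090 in Soci and -0.07 ± 0.089 in Cogn, and Axl, a receptor for dying cells, by -0.44 ± 0.12 over both.

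**Figure D4:**
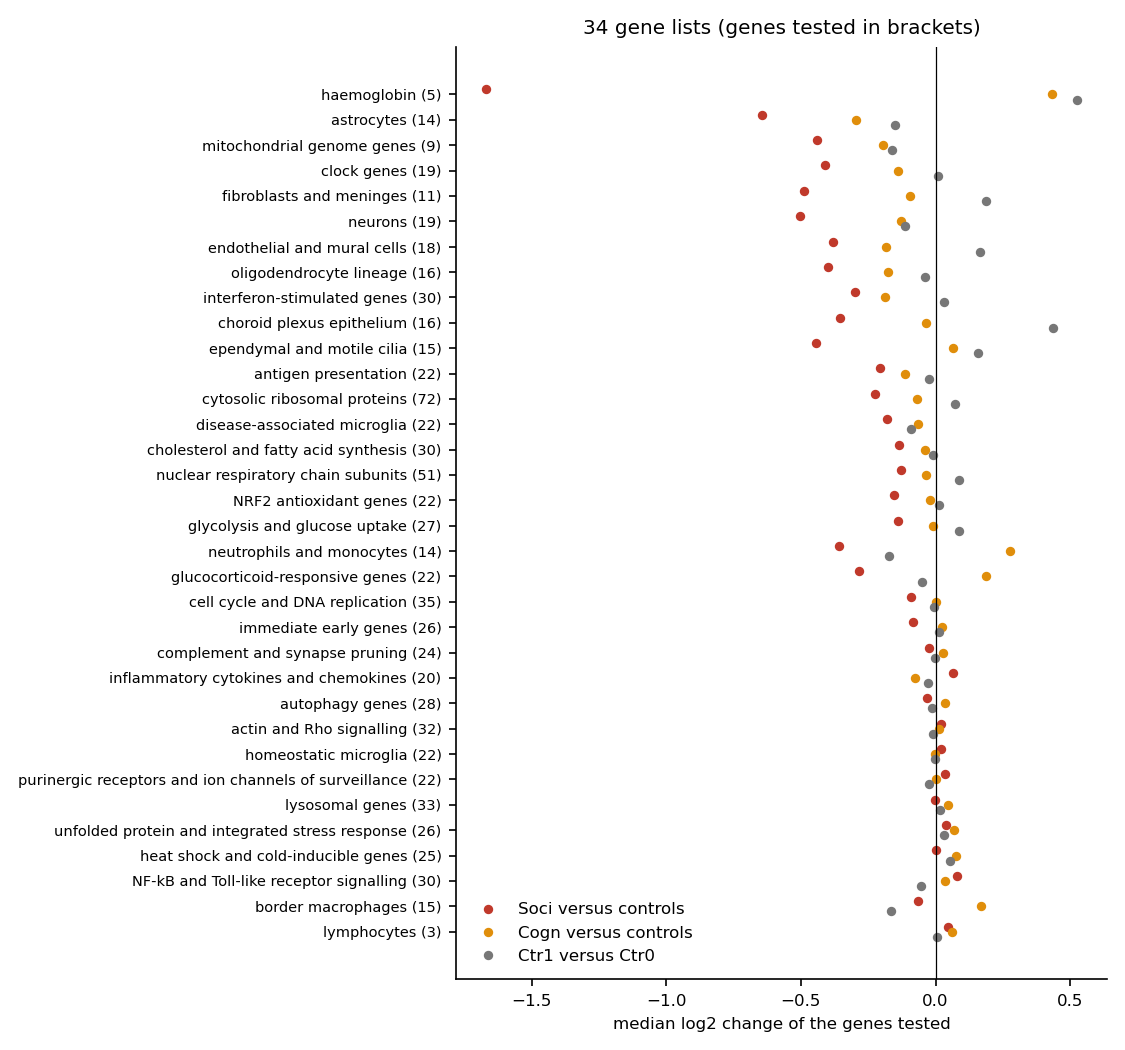
Median log2 change of the tested members of 34 gene lists in Soci and in Cogn against the controls and in Ctr1 against Ctr0. Soci medians run from -1.67 for haemoglobin genes, while the Cogn median of that list is 0.43. The clock list has medians of -0.41, -0.14 and 0.01.

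Genes that define surveying microglia differed little. Of 22 homeostatic genes 0 had an unadjusted p under 0.05 and the median was 0.01 (4 lower, -0.08, with the Gm26917 share as a covariate), with Csf1r at -0.01, Cx3cr1 at 0.03, P2ry12 at -0.05 and Tmem119 at -0.06. Of 22 purinergic and channel genes 3 were higher at that p (P2rx4 at 0.19, P2ry6 at 0.16, and Trpv2), as were 4 of 30 in the NF-kB and Toll-like receptor list (Irak1 at 0.18, Nfkbiz at 0.22, Irak4 and Bcl3) and 4 of 33 lysosomal genes, including Mcoln1 (0.21) and Atp6v0c (0.25). With the Gm26917 share as a covariate 0 members of these 3 lists were higher, and 2 purinergic, 5 NF-kB and 4 lysosomal genes were lower (medians -0.10, -0.06 and -0.08). That covariate fit had 3019 genes at an unadjusted p under 0.05, both directions together, against 1389 in the main fit. In the main fit 5.52% of all genes were higher at that p. None of 26 immediate early genes and none of 22 glucocorticoid-responsive genes had such a p. The glucocorticoid median was -0.28 in Soci and 0.19 in Cogn. Of 20 inflammatory cytokines 2 were lower at that p, Cxcl10 (-0.85) and Ccl7 (-1.34), both at no more than 1.42 CPM in any library.

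The other pathway lists had few members at an unadjusted p under 0.05, which 5.52% of all genes reached on the higher side and 2.86% on the lower. Complement had 1 lower and 1 higher of 24 (median 0.00), heat shock 1 lower of 25 (0.04), NRF2 targets 3 lower and 1 higher of 22 (-0.07), and autophagy 1 lower and 1 higher of 28 (0.01). Cholesterol synthesis had 3 lower of 30 (-0.10, with Hmgcs1 at -0.26 and Scd2 at -0.37), glycolysis 3 lower of 27 (-0.06) and the cell cycle 2 lower of 35 (-0.05, with Aurka at -0.58). The unfolded protein response had 1 higher of 26 (Sdf2l1 at 0.23) and actin regulators 3 higher of 32, including Was (0.15).

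Markers of cells other than microglia had negative medians in Soci and Cogn in most lists. Of all genes, 2.86% were lower at an unadjusted p under 0.05. All 14 astrocyte markers were negative (median -0.46, 3 lower at an unadjusted p under 0.05), among them S100b (-1.11 ± 0.42), Gja1 (-0.67 ± 0.26) and Slc1a2 (-0.74). Their sum averaged 544 CPM in Soci and Cogn and 832 CPM in the controls (exact permutation p = 0.115), the latter including Ctr0 replicate 4 at 1909 CPM. Without the 3 libraries 0 of the 14 were at that p (median -0.23). Neuronal markers were negative in 18 of 19 with 0 at that p (median -0.29). With the Gm26917 share as a covariate their median was 0.15, with 7 higher, a count not set beside a share of all genes higher in the same fit. Oligodendrocyte markers had 2 lower of 16 (-0.26, including Mbp and Mobp). Endothelial markers had 1 lower of 18 (-0.28), ependymal genes 1 of 15 (-0.15), fibroblast genes 1 of 11 (-0.30) and choroid plexus genes 0 of 16 (-0.20). With a neuronal score as a covariate Dbp (-0.996), Nr1d2 (-0.68) and Tef (-0.48) passed and Per3 did not (-0.53, adjusted p = 0.0600, edgeR). With a choroid plexus score Dbp (-1.04) and Nr1d2 (-0.62) passed, and Per3 (-0.58, adjusted p = 0.0510) and Tef (-0.45, adjusted p = 0.0540) did not. The part of the astrocyte markers was not tested.

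Markers of blood cells and of border macrophages gave mixed values. The neutrophil and monocyte markers summed to 341 CPM in Soci and Cogn and 289 CPM in the controls (exact permutation p = 0.0149, unadjusted). Most of that sum was Csf3r, which microglia also express. Csf3r held 311 to 356 CPM in Soci, where the sum was 328 to 386 CPM. It held 262 to 345 CPM in Cogn, 220 to 300 in Ctr0 and 203 to 279 in Ctr1. Over the 14 tested markers the median was -0.05, with 1 higher at an unadjusted p under 0.05. Of 15 border macrophage markers 1 was higher (Stab1 at 0.20, median 0.08), while without the 3 libraries 1 was lower (median -0.06), and only 3 of 18 lymphocyte markers had counts enough to test (median 0.08). The haemoglobin list had 1 lower of 5 (median -0.63), with -1.67 in Soci and 0.43 in Cogn. Without the 3 libraries 4 of 5 were lower (median -0.86). The counts without the 3 libraries are not set beside a share of all genes lower in the same fit.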

How the data were processed

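Microglial total RNA libraries were sequenced on a HiSeq platform, and the deposited table holds raw counts per gene, which the authors made with STAR 2.7.3a and featureCounts (Subread 2.0.0) on GRCm38.p5. Symbols and positions came from GENCODE M21 (49412 of 49671 identifiers matched). The 16 libraries (12.99 to 84.5 M counts) were fitted in R 4.3.3 with edgeR 4.0.16 (quasi-likelihood test, TMM scaling, filterByExpr, 4 condition means, Benjamini-Hochberg threshold 0.05). Changes are log2 ± SE, and levels are CPM. Interactions used 32 libraries each. DESeq2 1.42.0 and limma 3.58.1 were alternatives, and the code was tested on simulated data. Named genes were those past the threshold, up to 10 per direction by p among genes above 2 log2 CPM, the leading 3 per direction of the secondary comparisons, and list members. The genes and lists were chosen with earlier results of these data known. Values of 2 list members are not reported here. No source states that libraries of a condition came from separate animals, so p-values measure the spread between libraries, which may be technical. No pair of libraries agreed within sampling noise (smallest chi-square per degree of freedom 15.7 over 24 pairs).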

Additional observations from a re-analysis of the deposited data

Results flagged for a closer look

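Dbp was the 1 gene whose night change differed from its day change in hippocampus by the interaction test (-1.04 log2). Single libraries far from the other 3 of their condition were sought by Dixon's test in 204 groups of 4, and 18 were found, where chance gives about 1 in 20 groups (10.2). Total counts stood apart in Soci replicate 4 (84.5 M counts, others 13.7 to 18.5) and Cogn replicate 4 (65.7 M counts, others 15.7 to 17.9). The share of the noncoding gene Gm23935 stood apart in replicate 4 of Soci (3.78%), Cogn (3.07%) and Ctr1 (3.09%), with the other libraries of these conditions between 0.159% and 0.545%. Ctr0 replicate 4 was also high (2.96%), beside Ctr0 replicate 2 at 1.15%, so replicate 4 held the highest share in every condition. In Ctr0 replicate 4 the astrocyte markers summed to 1909 CPM (others 478 to 681) and the oligodendrocyte markers to 551 CPM (others 258 to 308).

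Among clock genes, Soci replicate 1 was high for Per2 (14.7 CPM, others 7.84 to 8.66) and Bhlhe40 (9.56 CPM, others 6.18 to 6.70). Ctr1 replicate 3 was high for Cry1 (7.91 CPM, others 4.60 to 4.77) and Hlf (20.9 CPM, others 17.5 to 17.9). Cogn replicate 3 was high for Rbm14 (32.8 CPM) and Taf15 (36.5 CPM), Cogn replicate 2 for Rps7 (39.8 CPM), and Cogn replicate 1 low for Alox5 (20.1 CPM). Soci replicate 2 was low for C5ar1 (30.9 CPM), Ctr0 replicate 1 for Rpl6 (54.0 CPM) and Ctr0 replicate 4 for Gfm2 (16.2 CPM).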

How the results depend on the processing

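The direction of the 4 clock genes and of Hlf and Arntl was the same under every alternative run, while the counts of calls moved. The main count of 4 became 0 with library totals alone, 0 against Ctr0 alone, 2 with the Gm26917 share and 2 with the choroid plexus score as a covariate, 11 with DESeq2, 7 with voom and quality weights, 0 without the 3 libraries that stand apart (Soci replicate 4, Cogn replicate 4 and Ctr0 replicate 4, chosen after seeing the data), and 0 to 4 when single libraries or a replicate number were left out. The count for Soci (0) became 7615 with library totals, 99 with DESeq2, 3244 with voom, 1 with the neuron score, 5 with all 32 hippocampal libraries and 0 to 1 in the leave-outs. For Cogn (0) it became 4, 3, 2 (share), 1 (neuron score) and 3 (32 libraries), and 0 to 1 in the leave-outs. For Soci against Cogn it became 11 and 2889. The night minus day count (1) became 0 with library totals, 4 with no filter, 25 with DESeq2, 195 with voom, 2 with the share, 0 without those 3 libraries, and 0 to 7 in the leave-outs. Library totals moved the median of all genes by 0.29, which was subtracted from the changes of single genes. Without the subtraction 13 of 82 named genes changed sign. The main fits held no term for the replicate number, and the p-values in the text above take no account of it. Of 24 same-numbered pairs, 16 correlated above 0.1 (from -0.366 to 0.704, median 0.166 against -0.0575 for other pairs). A batch shared by libraries of 1 number was not tested. As a hint from the data and not the design, 11 of 16 libraries correlated best with their own number. The fit with the replicate block called 3 genes in the main comparison, 200 for Soci and 2 for night minus day. The total count difference ran from -2.69 to 16.4 M counts in the leave-outs, the Gm26917 share from -10.6 to -5.56 points and the genes detected from 270 to 1347. Other values that changed sign, none of them called, were Nr4a2 0.16, Jund 0.092, Hspb1 0.037, Tubb3 0.021, Cfap54 0.059, Lcn2 -0.58 and Cd79b -0.10 with the share, Sparc 0.014 and Folr1 0.16 with voom, Cd4 -0.058 against Ctr1 alone, and in the leave-outs, Sparc (-0.157 to 0.0042) and Cd79b (-0.023 to 0.153). The causes were not tested. Depth limits genes under about 1 CPM.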
